A study of Mus musculus with 9 samples.

Results

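Col2a1, Col9a1, Col9a2, Col9a3, Acan, Hapln1, Sox5 and Sox6 are cartilage genes known to work with or under the transcription factor SOX9, and they were followed here in the fetal gonad. The 8 genes were chosen by name and matched to their Ensembl identifiers, and all 8 were among the 15300 genes of the authors' deposited tables. The samples were gonads of C57BL/6 mice at E13.5 (days after mating), cut away from the adjoining mesonephros, with 3 samples in each of 3 groups. XY-WT was control testis and XX-WT was control ovary, and both carried homozygous floxed Sox9 alleles (Sox9flox/flox) without Cre. XY-KO was testis with the same floxed alleles and AMH-Cre, a Cre recombinase driven by the promoter of the Amh gene, which is active in Sertoli cells. Deletion was therefore directed at 1 cell type of a whole organ that also holds germ, interstitial, endothelial and blood cells. Whether 1 fetus or a pool made up a sample is not in the labels, so the spread between samples behind the errors may be technical in part.

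In cartilage, SOX9 binds the enhancers of matrix genes together with SOX5 and SOX6, the SOXD proteins, which have the same type of DNA-binding HMG box but no activation domain of their own. The matrix they switch on has a fibril of type II collagen, decorated by type IX collagen, and a gel of the proteoglycan aggrecan held on hyaluronan by a link protein. In the testis, SOX9 is known as the factor that drives Sertoli cell differentiation, and the testis makes no cartilage.

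All values rest on group comparisons made by the authors, so values of single samples are not given and the depth of each sample is unknown. Levels in each group, in CPM (reads of a gene relative to all counted reads of the library), were derived from the authors' mean expression and fold changes, with 95% intervals from the standard errors (SE) that the authors' t scores imply. Changes were called where limma's adjusted p was under 0.05. The targeted gene, Sox9, stood at 89.4 CPM in XY-WT (95% interval 76.8 to 104), 13.2 in XY-KO (10.7 to 16.2) and 4.02 in XX-WT (3.04 to 5.32). XY-KO thus kept more Sox9 RNA than XX-WT, with a log2 difference of 1.71 (limma adjusted p 8.14e-05, from the authors' deposited table). Against XY-WT, 11 of 13 Sertoli cell markers were lower, 1 higher, and 7 of 7 pre-granulosa markers were higher in XX-WT by the authors' limma test. Over all genes of that comparison 12.4% were lower and 10.9% higher.

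Setting XY-KO against XY-WT asks which of these cartilage genes depend on Sox9 in the fetal testis. The 4 collagen genes fell and the other 4 did not pass the test. Col9a3 was 4.51-fold lower (95% interval 3.61 to 5.63), Col9a1 4.37-fold (2.83 to 6.74), Col9a2 3.67-fold (2.54 to 5.3) and Col2a1 2.55-fold (1.81 to 3.58). Over all genes of this comparison 1.57% were called lower and 0.699% higher, 2.27% in either direction. The median log2 fold change of the 8 genes was -0.70, against -0.01 over all genes. The tissue was a whole gonad, so fewer cells of a type and less RNA per cell cannot be told apart.

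**Figure D1:**
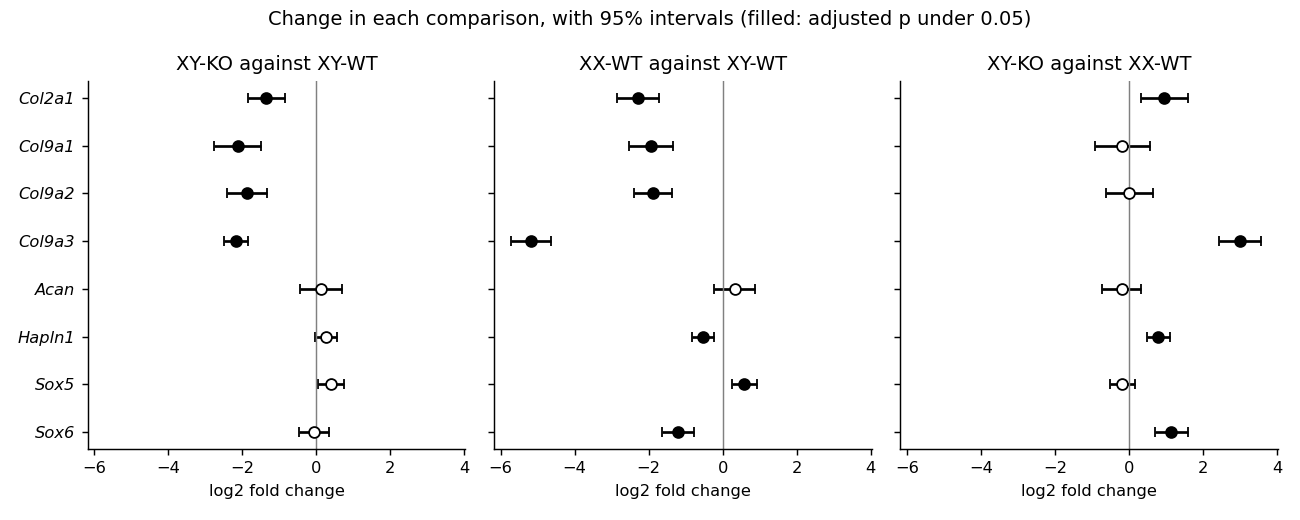
Log2 fold change of the 8 genes in the 3 comparisons of the authors, with 95% intervals as bars; filled points have a limma adjusted p under 0.05. In XY-KO against XY-WT the 4 collagen genes lie between -2.17 and -1.35, while Acan, Hapln1, Sox5 and Sox6 lie between -0.06 and 0.41.

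Type IX collagen is a heterotrimer of 3 different chains, encoded by Col9a1, Col9a2 and Col9a3, which sits on the surface of type II collagen fibrils and carries them into contact with other matrix. The genes lie on different chromosomes: Col9a1 on chromosome 1 (24177610 to 24252684), Col9a2 on chromosome 4 (121039385 to 121055322) and Col9a3 on chromosome 2 (180597790 to 180622189), all on the plus strand of GRCm38. Col9a1 has a pair of start sites, known to give a long and a short chain, and gene totals do not separate them. Upstream sequences are shown for Col9a1 and Col9a2, which were lower in both comparisons with XY-WT below. Col9a3 and Col2a1 were lower in both as well, but no upstream window was available for them. The sequences come from RefSeq on GRCm38.p6 and run 5′ to 3′ up to the first annotated exon base. Capitals would mark the SOX core motifs ACAATG and ACAAAG, searched on both strands and not overlapping each other here.
Col9a1, upstream start, chr1:24177360-24177609: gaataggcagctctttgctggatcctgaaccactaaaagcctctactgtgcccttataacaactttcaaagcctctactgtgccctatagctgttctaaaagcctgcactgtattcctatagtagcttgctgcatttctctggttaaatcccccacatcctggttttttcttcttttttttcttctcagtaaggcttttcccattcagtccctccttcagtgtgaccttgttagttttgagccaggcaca
Col9a1, downstream start, chr1:24194953-24195186: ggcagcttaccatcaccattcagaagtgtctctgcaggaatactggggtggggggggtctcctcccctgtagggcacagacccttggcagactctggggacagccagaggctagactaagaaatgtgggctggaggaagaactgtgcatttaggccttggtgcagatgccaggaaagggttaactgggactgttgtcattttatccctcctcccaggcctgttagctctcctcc
Col9a2, chr4:121039316-121039384: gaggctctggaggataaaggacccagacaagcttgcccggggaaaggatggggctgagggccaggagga
Neither motif occurred in these stretches, nor in the full windows of 250 bases before the RefSeq starts. Over the windows of all genes, 10.7% held ACAATG, 16.5% held ACAAAG and 25.2% held at least 1 of them. The absence concerns these letters in these windows alone.

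Col9a3 was the most abundant of the 3 chains in XY-WT, at 57.8 CPM (95% interval 50.5 to 66.2), with 12.8 in XY-KO (10.7 to 15.3) and 1.6 in XX-WT (1.13 to 2.28). The 3 intervals were separate, so the order was XY-WT, then XY-KO, then XX-WT. The authors' deposited table put the change in XY-KO at -2.17 on the log2 scale (SE 0.151, limma adjusted p 2.02e-06). Still lower lay the ovary, for which the authors' deposited table gave -5.17 against XY-WT (SE 0.255, limma adjusted p 2.06e-09), or 36.1-fold (95% interval 24.8 to 52.6). XY-KO therefore remained 8.0-fold above XX-WT (5.4 to 11.9; limma adjusted p 1.03e-06), and its fall was 42.0% of the log2 distance between the control testis and ovary.

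Col9a3 shares exon bases with Tcfl5, a transcription factor gene on the opposite strand, and the sources used here do not say whether reads were counted by strand. Reads of these genes may thus be mixed. Tcfl5 was also lower in XY-KO, where the authors' deposited table gave -1.41 with an adjusted p of 0.0202. Once a trend with GC content and transcript length was taken out, the Tcfl5 change was -1.16 and no longer called, with an adjusted p of 0.0671. That trend was fitted over genes at or above the median of mean log2 expression, 3.19. Tcfl5 lies below it, at 1.19, so the trend was carried over to it from more abundant genes. Between XX-WT and XY-WT, where Col9a3 differed 36.1-fold, the authors' deposited table had Tcfl5 at -0.24, with an adjusted p of 0.521. In XY-KO against XX-WT, Tcfl5 was at -1.18 (limma adjusted p 0.0112).

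Col9a1 was at 6.57 CPM in XY-WT (95% interval 5.29 to 8.17), 1.5 in XY-KO (1.03 to 2.19) and 1.71 in XX-WT (1.21 to 2.42). The authors' deposited table put XY-KO at -2.13 (SE 0.294, limma adjusted p 0.000787) and XX-WT at -1.94 (SE 0.278, adjusted p 9.38e-05), both against XY-WT. Control testis was thus the high group, and the knockout testis and the ovary overlapped.

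Col9a2 was likewise highest in control testis, at 8.99 CPM in XY-WT (95% interval 7.38 to 10.9), 2.45 in XY-KO (1.79 to 3.35) and 2.43 in XX-WT (1.8 to 3.28). The authors' deposited table listed its changes against XY-WT as -1.88 in XY-KO (SE 0.25, limma adjusted p 0.000614) and -1.89 in XX-WT (SE 0.243, adjusted p 3.34e-05). For these 2 chains XY-KO did not differ detectably from XX-WT: the direct difference was -0.18 for Col9a1 (95% interval -0.92 to 0.55, limma adjusted p 0.776) and 0.01 for Col9a2 (-0.61 to 0.63, adjusted p 0.983). The intervals leave room for a difference of up to 1.9-fold in Col9a1 and 1.55-fold in Col9a2. Both changes against XY-WT share the XY-WT samples.

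The chains can be set against each other only per transcript length. Divided by the longest annotated transcript in kilobases (kb), XY-WT had 19.0 CPM per kb of Col9a3 (95% interval 16.6 to 21.7), 3.07 of Col9a2 (2.52 to 3.74) and 1.71 of Col9a1 (1.38 to 2.13). By this measure the 3 chains of 1 trimer were unequal at the RNA level in the control testis. Only length was allowed for. The part of GC content, amplification and bases shared with Tcfl5 in this order was not tested. In XY-KO the same values were 4.21, 0.838 and 0.392 CPM per kb, in the same order. In XX-WT the levels of the 3 chains per kb were 0.526 for Col9a3 (0.37 to 0.747), 0.831 for Col9a2 (0.616 to 1.12) and 0.446 for Col9a1 (0.315 to 0.632), with overlapping neighbours in that order. Dividing by the median transcript length left the order of the chains in each group as it was, with 50.2 for Col9a3, 12 for Col9a2 and 3.32 CPM per kb for Col9a1 in XY-WT.

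Col2a1 (chromosome 15, 97975602 to 98004695) encodes the single chain of type II collagen, the main fibril of cartilage. It was at 8.47 CPM in XY-WT (95% interval 6.93 to 10.3), 3.32 in XY-KO (2.52 to 4.38) and 1.72 in XX-WT (1.22 to 2.42). The knockout testis lay between the controls and overlapped neither interval. The authors' deposited table gave -1.35 for XY-KO against XY-WT (SE 0.231, limma adjusted p 0.00451) and -2.30 for XX-WT against XY-WT (SE 0.268, adjusted p 1.27e-05). The excess over the ovary that remained was 0.95 per the authors' deposited table (SE 0.297, limma adjusted p 0.0356), and the fall was 58.7% of the distance between the controls. Type II collagen was below the Col9a3 chain in XY-WT per length of the longest transcript, at 1.66 CPM per kb (1.36 to 2.03).

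The 4 collagen genes have many exons, and 3 of them are rich in GC. The longest transcripts of Col2a1, Col9a1, Col9a2 and Col9a3 have 54, 38, 32 and 33 exons, the short repeated exons of the triple helix, while Acan, Hapln1, Sox5 and Sox6 have 17, 5, 15 and 16. In GC content Col9a2 (62.7%), Col2a1 (62.2%) and Col9a3 (59.2%) lie at percentiles 99.0, 98.7 and 94.9 of all genes, and Col9a1 (52.2%) at percentile 66.5. Log2 fold changes in XY-KO had a trend with GC content and length, fitted over genes at or above median expression. Col2a1, Col9a1 and Col9a2 lie below that level, so the trend was carried over to them from more abundant genes. It was worth -0.43 for Col9a2, -0.37 for Col2a1, -0.31 for Col9a3 and -0.11 for Col9a1. With it taken out the changes were -1.44 for Col9a2, -0.98 for Col2a1, -1.86 for Col9a3 and -2.01 for Col9a1, and each was still called. Col2a1 came closest to losing its call, with an adjusted p of 0.0447.

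**Figure D2:**
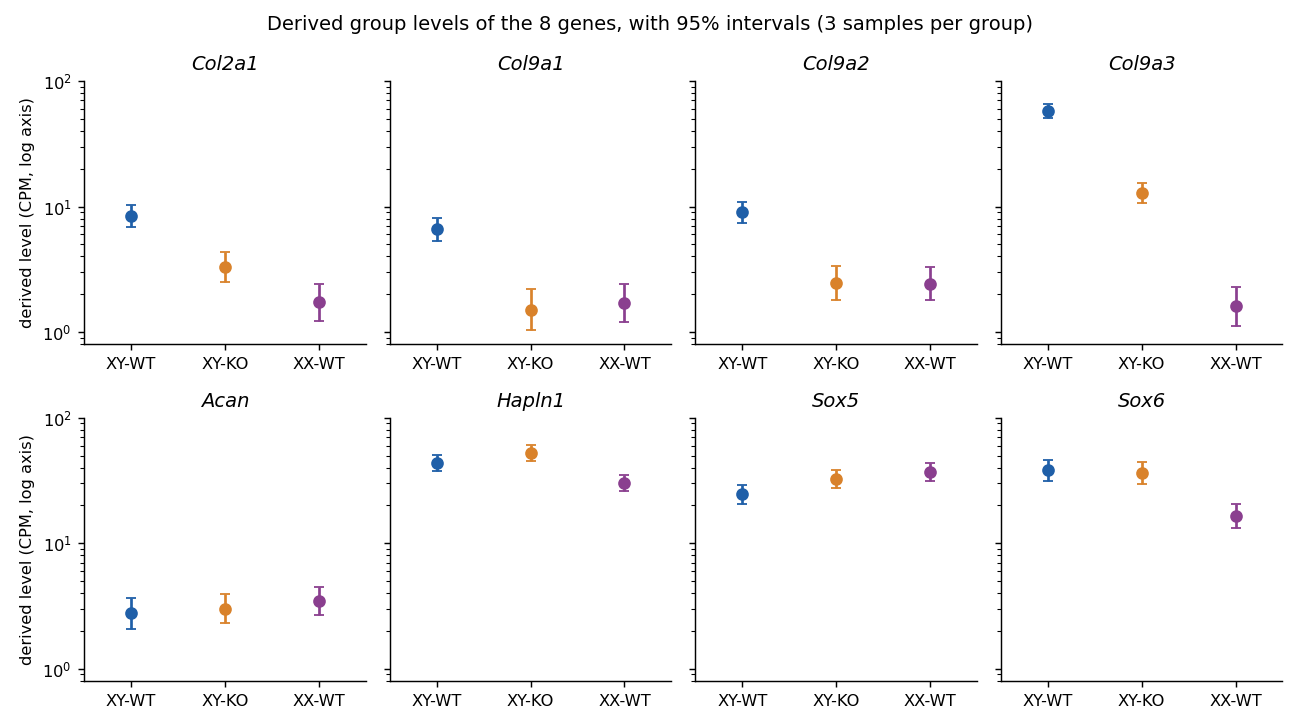
Derived level of each gene in CPM on a log axis, by group, with 95% intervals as bars and 3 samples behind each point. The 4 collagen genes are highest in XY-WT, Col9a1 and Col9a2 meet XX-WT in XY-KO, and Sox6 is alike in the XY groups and lower in XX-WT.

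Aggrecan and link protein 1, the proteoglycan side of the same matrix, were not called in XY-KO. Acan (chromosome 7, 79053483 to 79115099) encodes aggrecan, and was low in all groups, at 2.76 CPM in XY-WT (95% interval 2.07 to 3.69), 3.01 in XY-KO (2.3 to 3.94) and 3.46 in XX-WT (2.7 to 4.44). No pair of groups was separated. The authors' deposited table gave 0.12 for XY-KO against XY-WT (limma adjusted p 0.844; 95% interval -0.45 to 0.69), which allows a fall of up to 1.36-fold. Given its SE, a log2 change of 1.07 would have been needed for a call, larger than for any other of these genes except Col9a1.

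Hapln1 (chromosome 13, 89539796 to 89611652) encodes the link protein that fastens aggrecan to hyaluronan, and per kb it was the most abundant of the 8 after Col9a3 in XY-WT. It stood at 43.5 CPM in XY-WT (95% interval 37.5 to 50.3), 52.1 in XY-KO (45 to 60.3) and 30.1 in XX-WT (25.9 to 35.1). XX-WT was the low group and the XY groups overlapped. In the authors' deposited table XX-WT was at -0.53 against XY-WT (SE 0.143, limma adjusted p 0.0139), while XY-KO was at 0.26 (SE 0.14, adjusted p 0.33). XY-KO was 1.73-fold above XX-WT (95% interval 1.4 to 2.14; limma adjusted p 0.000925). The interval of the XY-KO change, -0.04 to 0.56, leaves room for a fall of 1.03-fold at most.

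The SOXD partners bind the same kind of site as SOX9 and raise its action on cartilage enhancers. Sequences before a RefSeq start of each gene are shown because each holds 1 of the SOX core motifs (capitals). They are given 5′ to 3′ on the gene's own strand, which is the minus strand for both, from RefSeq on GRCm38.p6.
Sox5, chr6:143947107-143947356: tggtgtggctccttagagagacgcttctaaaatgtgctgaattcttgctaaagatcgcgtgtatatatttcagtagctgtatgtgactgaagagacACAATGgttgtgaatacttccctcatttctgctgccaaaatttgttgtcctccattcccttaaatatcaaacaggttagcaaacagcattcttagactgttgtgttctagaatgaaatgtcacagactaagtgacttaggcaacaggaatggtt
Sox6, second of 6 RefSeq starts, chr7:116031048-116031297: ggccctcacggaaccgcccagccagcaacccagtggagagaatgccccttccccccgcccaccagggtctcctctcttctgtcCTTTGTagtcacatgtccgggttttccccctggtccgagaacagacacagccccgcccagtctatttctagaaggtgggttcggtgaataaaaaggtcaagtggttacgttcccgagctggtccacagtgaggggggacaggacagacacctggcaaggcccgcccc
The Sox5 match, ACAATG, lies 154 to 149 bases before the start. That start is internal, because the annotated Sox5 gene runs on the minus strand from 144781977 down to 143828425. Of its 14 annotated transcripts, 1 holds the bases after this start. The Sox6 match reads ACAAAG on the other strand, 167 to 162 bases before the start. Of the 16 annotated Sox6 transcripts, 2 hold the bases after this start. The bases after the sixth Sox6 start are held by 11 transcripts, and its window had no motif. Of the 12 windows matched to 6 of the 8 genes, 6 held a motif, 1 for Sox5 and 5 for Sox6, beside the 25.2% of all windows given above. Of these 6, the second Sox6 window had 60.8% GC and the others 39.6% to 45.2%, against a median of 52.4% over all windows. The part of base composition in this count was not tested. A match is a description of letters, not of binding.

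Sox6 (chromosome 7, 115470872 to 116038796) was at 38.0 CPM in XY-WT (95% interval 31.2 to 46.4), 36.5 in XY-KO (29.8 to 44.7) and 16.5 in XX-WT (13.2 to 20.7). Both kinds of testis were high and overlapped, and the ovary was low. The authors' deposited table gave -1.20 for XX-WT against XY-WT (SE 0.205, limma adjusted p 0.000449), 1.14 for XY-KO against XX-WT (SE 0.206, adjusted p 0.000889) and -0.06 for XY-KO against XY-WT (SE 0.193, adjusted p 0.899). The 95% interval of the last value allows a fall of up to 1.38-fold, against a difference of 2.3-fold between the sexes. Its change in XY-KO came to 4.9% of that sex difference.

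Sox5 (chromosome 6, 143828425 to 144781977) ran the other way, with 24.5 CPM in XY-WT (95% interval 20.6 to 29.2), 32.5 in XY-KO (27.5 to 38.4) and 36.9 in XX-WT (31.4 to 43.3). It was lower in XY-WT than in XX-WT, and XY-KO overlapped both. The authors' deposited table gave 0.59 for XX-WT against XY-WT (SE 0.161, limma adjusted p 0.0148) and 0.41 for XY-KO against XY-WT (SE 0.164, adjusted p 0.198, unadjusted p 0.0256). A change of 0.66 would have been needed for a call of Sox5 in XY-KO. The gene shares exon bases with the antisense RNA Sox5os1, which the authors' deposited table placed at 0.87 in XY-KO with an adjusted p of 0.345.

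The third SOXD gene, Sox13, and the SOXE genes, which hold Sox9 and its relatives Sox8 and Sox10, complete the family. Sox13 had 13.4 CPM in XY-WT (95% interval 11.2 to 16.1), 7.51 in XY-KO (6.1 to 9.26) and 7.63 in XX-WT (6.24 to 9.34). The authors' deposited table gave a change of -0.84 in XY-KO (SE 0.187, limma adjusted p 0.027) and a direct difference from the ovary of -0.02 (95% interval -0.44 to 0.40, adjusted p 0.955). After the GC and length trend was taken out the change was -0.49 and was not called (adjusted p 0.223). Sox10, a neural crest and glial factor, was lower in XY-KO, at 0.419 CPM against 6.39 in XY-WT (limma adjusted p 0.000278). For Sox8 the authors' deposited table had -0.70 without a call (adjusted p 0.0888).

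Control ovary was set against control testis to measure the sex difference that the deletion is read against. Of the 8 genes, 6 were lower in the ovary (Col2a1, Col9a1, Col9a2, Col9a3, Hapln1 and Sox6), Sox5 was higher and Acan was not called. Over all genes 12.4% were lower and 10.9% higher in XX-WT, 23.3% in either direction, by the authors' limma test. The size ranged from 36.1-fold for Col9a3 to 1.44-fold for Hapln1 (95% interval 1.17 to 1.78). The median log2 fold change of the 8 was -1.54, against 0.00 over all genes.

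Direct comparison of XY-KO with XX-WT shows how far the knockout testis still stood from the ovary. The genes higher in XY-KO were 4, namely Col9a3 (8.0-fold), Sox6 (2.21-fold, 95% interval 1.63 to 2.99), Col2a1 (1.93-fold, 1.25 to 2.99) and Hapln1 (1.73-fold), by the authors' limma test. None of the 8 was lower, and Col9a1, Col9a2, Acan and Sox5 were not called. Over all genes 9.16% were higher and 9.11% lower in XY-KO than in XX-WT, 18.3% in either direction. With at least a 2-fold change also asked for, 2 of the 4 remained, Col9a3 and Sox6, against 5.25% of all genes higher, 4.82% lower and 10.1% in either direction. Of the 4 collagen genes, Col2a1 and Col9a3 were thus above the ovary in the knockout testis, and Col9a1 and Col9a2 did not differ detectably from it. The median log2 fold change of the 8 was 0.40.

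**Figure D3:**
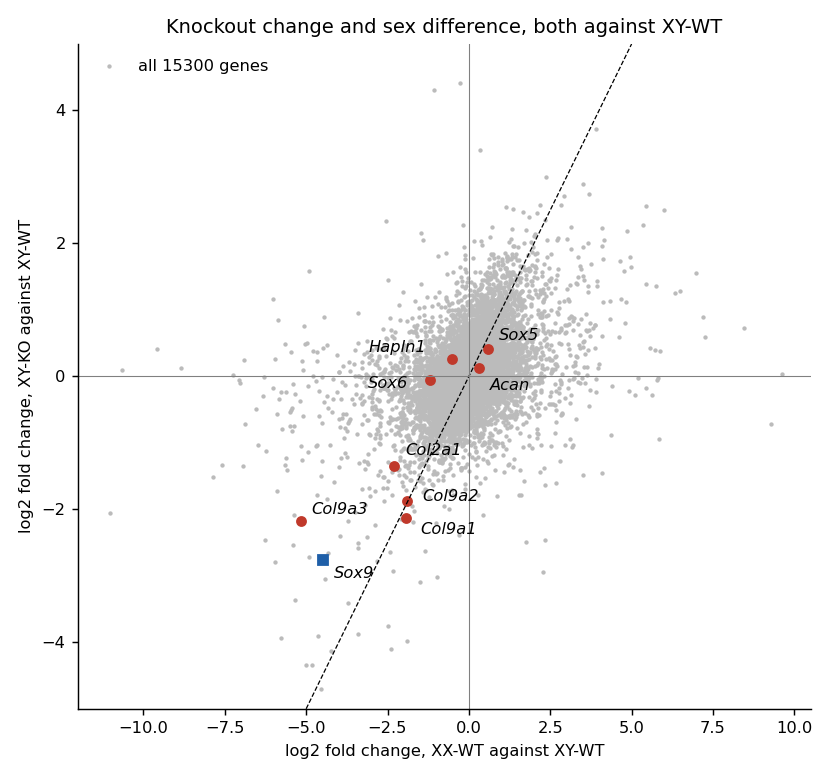
Log2 fold change of XY-KO (vertical) against that of XX-WT (horizontal), both relative to the same XY-WT samples, for all 15300 genes (grey), the 8 genes (red) and Sox9 (blue square); on the dashed line XY-KO equals XX-WT. Col9a1 and Col9a2 lie on or near the line, Col9a3 and Sox9 to its left, and Sox6 near the horizontal axis.

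By likeness over these 2 log2 changes, among 7336 named genes at or above median expression, the nearest to Col2a1 were Plcb2, a phospholipase C (distance 0.0381), Kcnh1, a potassium channel (0.142), and Col14a1, a collagen of the same fibril-associated class as type IX (0.152). Nearest to Col9a2 were Gstm7, a glutathione transferase (0.413), Kcnh1 (0.544) and Smtnl2 (0.547). Gstm7 (0.65), Kcnh1 (0.752) and Col14a1 (0.769) were nearest to Col9a1. Col9a1 and Col9a2 were closer to each other, at 0.258, than to any of these, though both were below the expression limit of the search. Nearest to Col9a3 was Sox9 itself (0.914), followed by Hhip, a hedgehog-binding protein (0.917), and Aard (1.06). Likeness here spans 3 groups only and says nothing of control.

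Other genes of cartilage were read beside the 8. Of 29 other cartilage matrix and chondrocyte genes 17 were measured (the other 12 were not analysed here), and 1 was lower and 0 were higher in XY-KO by the authors' limma test, beside 1.57% lower and 0.699% higher over all genes. That gene was Col27a1, a fibrillar collagen of cartilage, for which the authors' deposited table gave -0.90 (SE 0.136, limma adjusted p 0.00169). Without a call, the authors' deposited table had Col11a1, whose chain is built into the type II fibril, at 0.08 (adjusted p 0.846) and Cnmd, the cartilage protein chondromodulin, at 0.96 (adjusted p 0.0536). Next by p was Chst11, a chondroitin sulphotransferase, which the authors' deposited table had at 0.65 (adjusted p 0.111). Adjusted over the 3 comparisons together, 3 of the 17 were called, 1 lower and 2 higher. The share of all genes called under that adjustment is not given here, so this count has no background beside it. The median log2 fold change of the 17 was -0.06, against -0.01 over all genes. Between ovary and testis 7 of the 17 were lower and 2 higher in XX-WT, with a median of -0.32, beside 12.4% lower and 10.9% higher over all genes. For the ovary the authors' deposited table gave -3.41 for Cnmd and 1.43 for Chst11.

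**Figure D4:**
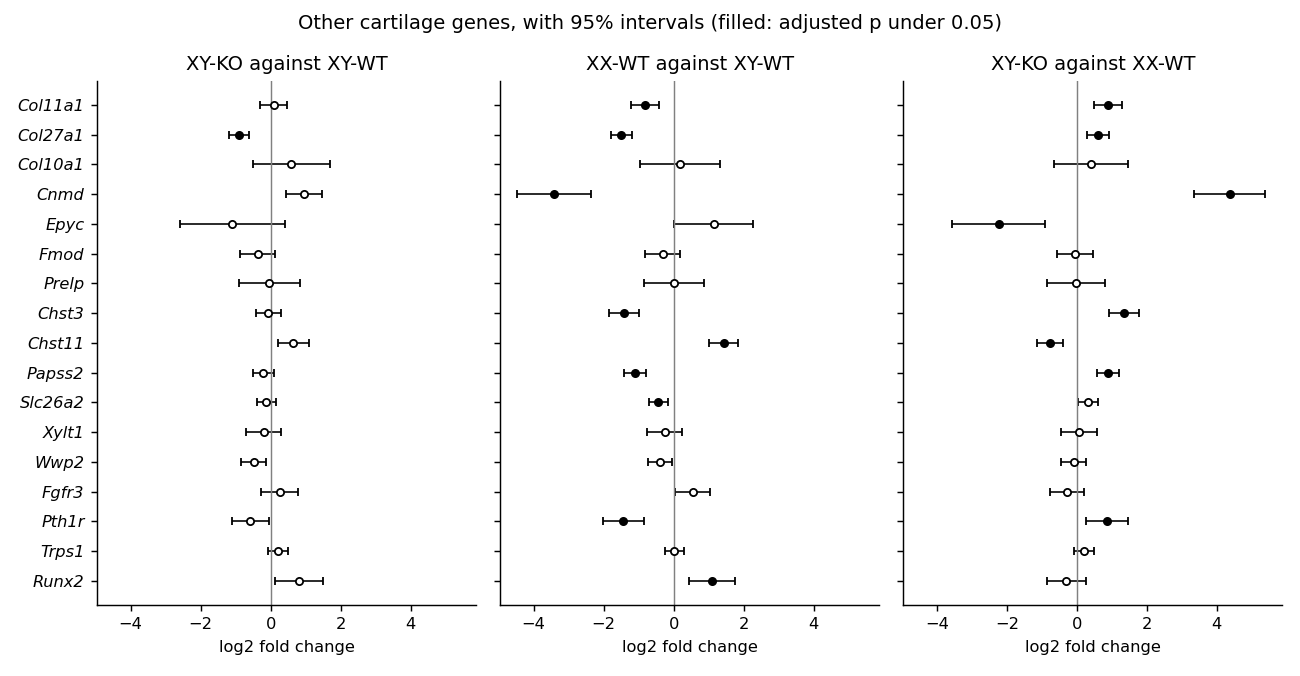
Log2 fold change of the 17 other cartilage genes in the 3 comparisons, with 95% intervals as bars; filled points have a limma adjusted p under 0.05. In XY-KO against XY-WT Col27a1 alone is filled, at -0.90.

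Genes that act on collagen or hyaluronan were read from further lists. Of 26 measured genes of collagen folding and processing, 2 were lower and 0 higher in XY-KO, with a median of -0.26, beside 1.57% and 0.699% of all genes. Per the authors' deposited table they were Plod2, a lysyl hydroxylase (-0.58, adjusted p 0.0272), and Colgalt1, which adds galactose to hydroxylysine (-0.81, adjusted p 0.00949). After the GC and length trend was taken out, Colgalt1 stood at -0.63 and was narrowly not called (adjusted p 0.0518). In XX-WT 15 of the 26 were lower and 1 higher than in XY-WT, beside 12.4% and 10.9% of all genes. Of 5 other fibril-associated collagens 1 was lower in XY-KO, Col14a1, which the authors' deposited table put at -1.39 (SE 0.168, limma adjusted p 0.000278). Neither the 7 collagen receptors nor the 9 genes of lecticans, link proteins and hyaluronan gave a call in XY-KO. The receptors of smallest p in the authors' deposited table were Ddr1, a receptor tyrosine kinase for collagen (-0.60, adjusted p 0.0554), and the integrin chains Itga11 (-0.69, adjusted p 0.103) and Itga2 (0.36, adjusted p 0.378). On the hyaluronan side the authors' deposited table had Hmmr, a hyaluronan receptor, at -0.44 (adjusted p 0.107), the link protein gene Hapln3 at -0.92 (adjusted p 0.215) and the hyaluronan synthase Has1 at 0.99 (adjusted p 0.316). In XX-WT 5 of those 9 were lower than in XY-WT and 1 was higher. The authors' deposited table had Vcan, the lectican versican, among the lower ones at -1.86 and Cd44, a hyaluronan receptor, as the higher one at 3.31.

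Markers of the cells that a gonad sample could hold were read beside these results. Of 13 Sertoli cell markers 6 fell (Amh, Dhh, Cst9, Aard, Cldn11 and Ptgds) and 0 rose in XY-KO. Over all genes 1.57% were lower and 0.699% higher, shares that apply to the lists below too. Summed levels of the 13 were 920.3 CPM in XY-WT, 706.1 in XY-KO and 486.5 in XX-WT. These sums include Wt1, the marker of highest mean log2 expression (7.87), which went the other way. Against XY-WT the authors' deposited table had Wt1 at 0.44 in XY-KO (limma adjusted p 0.14) and 1.09 in XX-WT (adjusted p 5.56e-05). Of 9 interstitial mesenchyme markers Ptch1 fell and Maf rose (summed 803.4, 782.9 and 343.2 CPM). Among the glia and neural crest markers reported here, Sox10 and Erbb3 fell. Ngfr (-0.25, limma adjusted p 0.44) and Fabp7 (-0.29, adjusted p 0.731) were not called. Myh8 rose among 6 skeletal muscle markers (19.1, 47.5 and 52.6 CPM). No marker of the endothelial (9), erythroid (8), macrophage (6), mesonephric (6), germ cell (8) or pre-granulosa (7) lists was called in XY-KO. The smallest adjusted p in those lists was 0.0796, for Ret among the mesonephric markers. The part of these cell types in the changes of the 8 genes was not tested.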

How the data were processed

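RNA sequencing of 9 gonad samples was used as the authors' own comparisons. Per the labels' protocols, RNA was column-purified, amplified by SPIA, which favours non-ribosomal RNA, and sequenced as pairs of 150 nt with a planned depth per sample; the depth reached is unknown. The submitters' processing notes list GRCm38 and, as tools, limma 3.24.0, HTSeq 0.6.1p1, TopHat2 2.0.8 and Trimmomatic 0.30, without roles. Each of 3 deposited tables held the authors' log2 fold change and mean log2 expression, whose linear values sum to 978109, so they were read as log2 CPM. Per the file headers the other columns were limma's t and log-odds scores, the p-value and its adjusted p-value. Steps between reads and tables, and the filter on genes, are not given in the sources used here.

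Recomputed Benjamini-Hochberg values matched the deposited ones within a relative 0.000769, and t gave p at 15.27 degrees of freedom. SE was the log2 fold change over t. That t is moderated by limma, so each SE draws in part on the spread of other genes. Group levels assume that the groups weigh equally in the mean, and their SE that the groups are independent in 1 fit. Positions and lengths came from GENCODE M21, found for 15192 genes. Calculations ran in Python 3.11.15 with statsmodels 0.14.6, scipy 1.17.1, pandas 2.3.3 and numpy 2.4.6, and were tested on simulated data. The genes and lists were chosen with earlier results of these data known. Genes of a list are named where called in XY-KO against XY-WT, otherwise those of smallest p, and genes of like pattern by the 3 smallest distances. Col11a1, Cnmd, Chst11, Vcan, Cd44, Tcfl5 and Sox5os1 were named after their values were seen. One glia and neural crest marker is not reported here, nor is that list's summed level. Alternatives were other thresholds and adjustments, centring, removal of a cubic trend in GC content and length, an expression filter and median transcript length.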

Additional observations from a re-analysis of the deposited data

How the results depend on the processing

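For the 8 genes in the 3 comparisons, 140 of 156 values recomputed under other settings kept direction and call. With at least a 2-fold change required, the count in XY-KO against XX-WT was 2. Bonferroni adjustment gave 3 in XX-WT against XY-WT and 1 in XY-KO against XX-WT, and Col2a1 lost its call in XY-KO against XY-WT (adjusted p 0.46). Over genes at or above median expression, which leaves out Col2a1, Col9a1, Col9a2 and Acan, the counts were 1 in XY-KO against XY-WT and 4 in XX-WT against XY-WT. Without the GC and length trend, Col9a2 in XY-KO against XX-WT turned to -0.016 and the germ cell marker Pou5f1 in XX-WT against XY-WT to 0.16, both without a call in either setting, and the 4 collagen genes kept their calls in XY-KO against XY-WT, at -2.01 (Col9a1), -1.86 (Col9a3), -1.44 (Col9a2) and -0.98 (Col2a1).

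Among the 17 other cartilage genes, the calls in XY-KO against XY-WT numbered 0 with a 2-fold limit, 0 by Bonferroni, 3 adjusted over the comparisons together (1 lower, 2 higher) and 2 without the trend (1 lower, 1 higher). In XX-WT against XY-WT they numbered 3 by Bonferroni and 5 above median expression. In XY-KO against XX-WT they numbered 3 with the 2-fold limit, 1 by Bonferroni and 4 above median expression. For XY-KO against XY-WT the shares of all genes called under these settings are not given here, so those counts lack a background.

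Per median transcript length, levels per kb rose by between 0.56 (Acan) and 2.90 (Col2a1) on the log2 scale. With it Col2a1 stood at 12.4 CPM per kb in XY-WT, above Col9a1 at 3.32. No paired analysis was possible because no values of single samples were used, and for the same reason no replicate could be left out.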
